A study of Mus musculus with 6 samples.

Results

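Chromaffin cells of the adrenal medulla pack catecholamines and peptides into dense-core granules whose soluble core is built largely of granins, the acidic proteins encoded by Chga, Chgb and the secretogranin genes. The genes described here are Chga (chromogranin A), Chgb (chromogranin B), Scg2 (secretogranin II), Scg3 (secretogranin III), Scg5 (7B2), Vgf, Pcsk1n (proSAAS) and the granule membrane proteins Ptprn (IA-2) and Ptprn2 (IA-2beta). They were chosen by name, as all probe sets that the platform annotation assigns to these 9 symbols. 8 of the 9 genes were found, with 11 probe sets among 12488 on the array, and 8251 genes had a single name there. Vgf was not analysed here.

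Whole adrenal RNA of 3 Chga knockout mice (Chga KO) and 3 wild-type mice (WT) had been hybridised to single-colour Affymetrix arrays, 1 array per sample. Both groups were male, and all mice were 12 weeks old. The labels trace both strains to 1 earlier study and state neither their genetic background nor the deleted exons. No treatment was labelled. The series gives 3 mice per genotype, and each array was read as 1 mouse.

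As background, granins aggregate with calcium at the acidic pH of the trans-Golgi network, which helps to sort cargo into granules, and most of them are also cut at pairs of basic residues into peptides with activities of their own. Chga loss is known for raised blood pressure and altered catecholamine storage in mice, and Chgb and Scg2 are its closest companions in chromaffin granules. Scg3 tethers chromogranin A to the cholesterol-rich granule membrane, Scg5 is the chaperone and inhibitor of prohormone convertase 2, and Pcsk1n encodes an inhibitor of prohormone convertase 1. Ptprn and Ptprn2 are inactive relatives of receptor tyrosine phosphatases that span the granule membrane.

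Expression of several granins is known to depend on a cyclic AMP response element (CRE) close to the start of transcription, bound by CREB and related leucine zipper factors. The promoters of Chga and of the 3 genes set beside it below are printed because the genes share, or lack, this element. Each is 300 bases, 250 before and 50 after the annotated gene start, 5′ to 3′ on the gene's own strand, from RefSeq on GRCm38.p6. Chga lies at chr12:102554691-102554990 (+ strand), Chgb at chr2:132781392-132781691 (+ strand), Scg2 at chr1:79439977-79440276 (- strand) and Pcsk1n at chrX:7919572-7919871 (+ strand). Capitals mark the full CRE, TGACGTCA, and its short form, TGACG, which is part of the full element, searched on both strands.
Chga: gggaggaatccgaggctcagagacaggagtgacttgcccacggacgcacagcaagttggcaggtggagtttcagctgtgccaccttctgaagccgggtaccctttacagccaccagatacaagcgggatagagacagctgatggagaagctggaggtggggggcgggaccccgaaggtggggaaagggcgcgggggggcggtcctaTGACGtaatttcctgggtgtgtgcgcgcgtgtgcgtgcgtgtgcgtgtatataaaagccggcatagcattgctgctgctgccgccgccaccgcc
Chgb: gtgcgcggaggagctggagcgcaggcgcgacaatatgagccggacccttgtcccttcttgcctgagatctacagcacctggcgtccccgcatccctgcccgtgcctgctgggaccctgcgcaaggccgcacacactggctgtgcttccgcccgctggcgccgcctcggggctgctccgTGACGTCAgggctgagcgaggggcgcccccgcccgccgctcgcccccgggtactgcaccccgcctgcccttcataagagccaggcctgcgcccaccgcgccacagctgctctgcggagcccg
Scg2: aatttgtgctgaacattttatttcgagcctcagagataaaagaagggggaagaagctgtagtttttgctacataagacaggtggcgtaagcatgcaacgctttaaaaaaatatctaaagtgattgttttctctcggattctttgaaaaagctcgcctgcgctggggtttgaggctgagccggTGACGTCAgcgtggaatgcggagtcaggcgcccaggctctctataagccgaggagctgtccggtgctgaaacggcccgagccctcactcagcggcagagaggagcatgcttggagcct
Pcsk1n: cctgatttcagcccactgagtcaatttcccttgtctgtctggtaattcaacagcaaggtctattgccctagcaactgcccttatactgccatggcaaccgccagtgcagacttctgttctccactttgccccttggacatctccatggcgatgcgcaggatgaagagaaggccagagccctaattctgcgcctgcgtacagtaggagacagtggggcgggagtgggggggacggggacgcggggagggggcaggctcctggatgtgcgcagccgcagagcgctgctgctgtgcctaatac

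The full CRE was found in Chgb, 72 bases before the start, and in Scg2, 68 bases before it. It was held by 2 of the 8 member genes with an entry, against 549 of all 27025 genes in the table (2.03%), counted at any of a gene's start sites, and by 588 of all 32851 promoters (1.79%). Chga held the short form alone, 44 bases before the start. 6 of the 8 genes, all but Pcsk1n and Ptprn2, held the short form, as did 23.0% of all genes and 20.8% of all promoters. A match describes these letters and says nothing of binding.

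Some whole-array measures moved with genotype, and Chga KO arrays 2 and 3 stood apart from the others. The ratio of 3′ to 5′ signal for the Gapdh control, a sign of RNA integrity, was 0.831, 1.30 and 1.29 on the Chga KO arrays, against 0.794, 0.762 and 0.806 on the WT arrays, and that of the Actb control was 1.32, 1.69 and 1.72 against 1.17, 1.22 and 1.14. The summed signal of 13 skeletal muscle markers was 10714, 83179 and 42650 on the Chga KO arrays, against 11210 to 11486 on the WT arrays, with Acta1, Atp2a1, Tnnc2, Myh1, Tnnt3, Tnni2 and Mb each spread over more than 8-fold within Chga KO. Pvalb and Mylpf were also higher on Chga KO arrays 2 and 3 than on any WT array. The rest, Ckm, Myh2, Myh4 and Actn3, did not follow and had lower means in Chga KO than in WT. Ckm read 762, 553 and 651 on the Chga KO arrays, against 763, 636 and 818 on the WT arrays. The nerve fibre genes Prph and Nefl read 1287 and 388 on Chga KO array 1, against 296 and 217 at most on any WT array, and the brown fat gene Ucp1 read 874, 8661 and 3496 on the Chga KO arrays, against 2344 to 10047 in WT. Summed signals of chromaffin markers (13 of 18 on the array, 102702 to 124268 in Chga KO and 97289 to 122062 in WT) and cortex markers (9 of 12, 598388 to 679709 and 569535 to 686883) overlapped between genotypes, and so did those of adipocyte, Schwann cell and other endocrine markers. Those of macrophage markers (9 of 10, 13937 to 20648 in Chga KO and 10209 to 13262 in WT) and endothelial markers (8 of 8, 31841 to 41271 and 29898 to 31191) did not overlap. The sums are weighted to the brightest genes. By log2 change, 7 of the 8 tested chromaffin markers were higher in Chga KO and 1, Pnmt, was lower, with a median of 0.26. For Dlk1 among them all Chga KO arrays lay above all WT arrays. The part of these measures in the results was not tested beyond the alternatives given. No marker was listed at 0.

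Chga fell in the knockout glands on both of its probe sets. Probe set 92422_at read 1188, 858 and 951 on Chga KO arrays 1 to 3, against 46719, 30213 and 35306 on WT arrays 1 to 3. Probe set 162192_f_at read 74.6, 57.0 and 119 on the Chga KO arrays, against 10218, 8726 and 8539 on the WT arrays. The groups lay far apart on both, and WT array 1 was the highest array on both. The log2 changes, Chga KO minus WT on log2(signal + 16), were -5.19 ± 0.20 and -6.57 ± 0.28 (standard error, n = 3 each, limma adjusted p = 5.29e-06 and 8.66e-06). On that scale Chga KO was 36.6-fold lower on 92422_at. The Chga KO signals of 162192_f_at lay below the signal of about 582 used as a filter on low values, so that it entered the test through its WT signals, and its value depends on the pseudocount, with -6.82 at a pseudocount of 1 and -5.98 at 64. Probe positions relative to the deletion were not analysed here, and the share of background in the remaining signal was not tested.

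Apart from Chga, no granule protein gene passed the test. 33 of 7453 probe sets tested passed an adjusted p of 0.05, which is 0.443% of them. A probe set was tested if its mean log2 signal over the 6 arrays reached the 40th percentile, a signal of about 582. 9 of the 11 member probe sets, of 7 of the 8 genes, reached it. The dimmer Chgb probe set and Ptprn2 did not. Of the 7 tested probe sets outside Chga, 6 had a higher mean signal in Chga KO, and 3, those of Chgb, Pcsk1n and Ptprn, had all Chga KO arrays above all WT arrays. By log2 change, 2813 of all 5663 tested genes were higher in Chga KO, and so were 7 of the 8 tested chromaffin markers. Over all tested probe sets, 7.55% had all 3 Chga KO arrays above all 3 WT arrays and 8.83% had them all below. The same 3 member probe sets had an unadjusted p under 0.05, where 11.3% of all tested probe sets did, 5.06% as higher and 6.25% as lower.

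**Figure D1:**
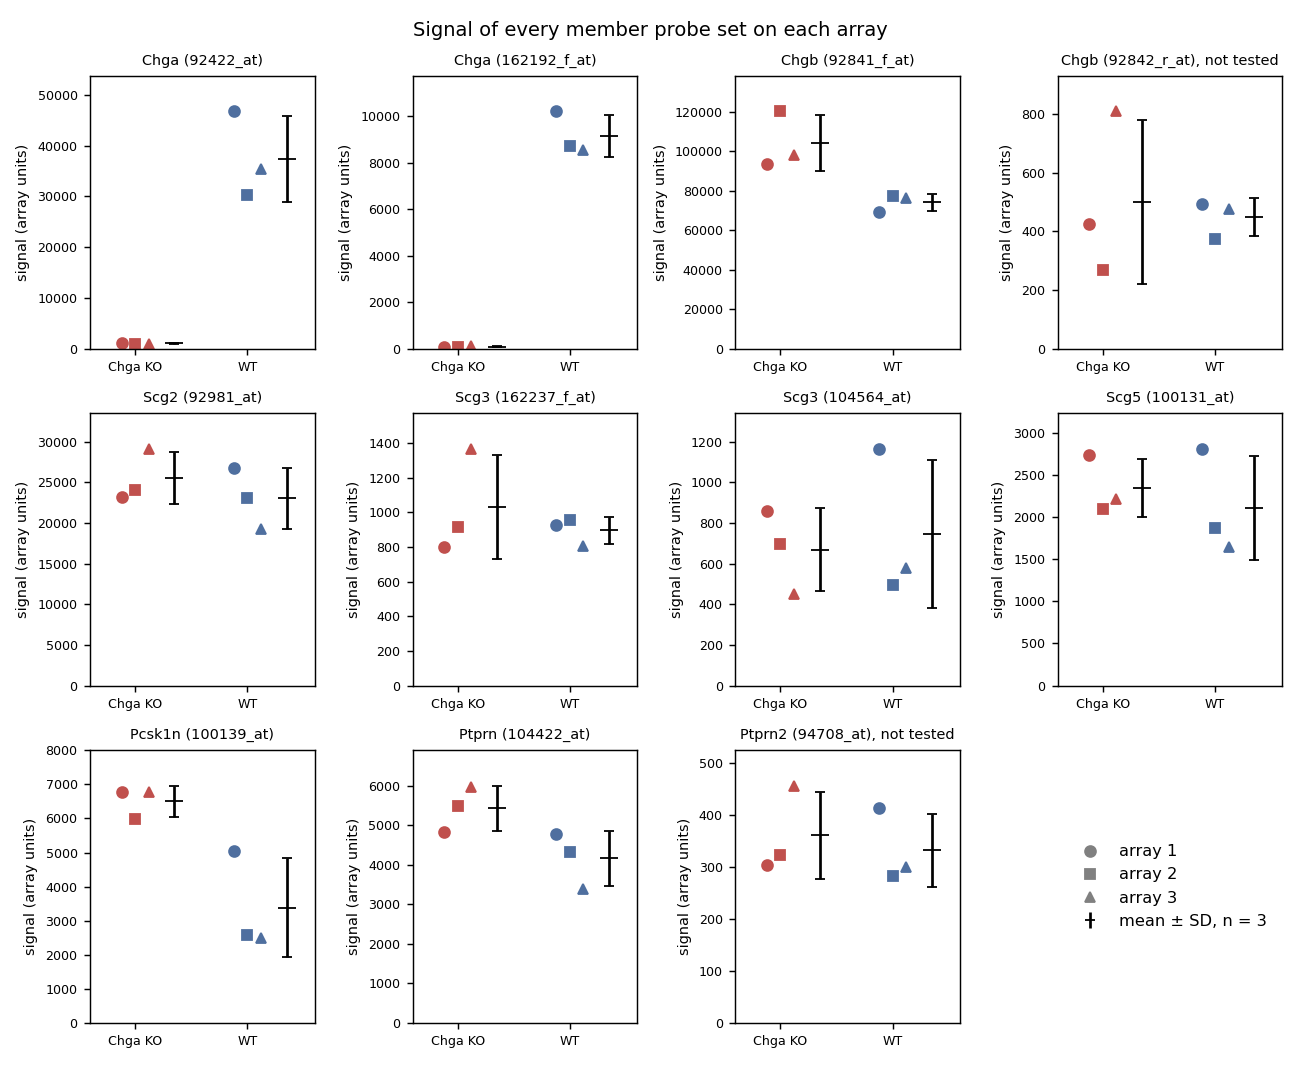
Signal of each of the 11 member probe sets (y axis, linear array units from 0, a separate scale in each panel) on the 3 Chga KO arrays (left, red) and the 3 WT arrays (right, blue), with mean ± SD (n = 3 each) as bars. The Chga KO arrays lay far below the WT arrays for Chga, the groups were apart for Chgb (92841_f_at), Pcsk1n and Ptprn, and they overlapped in the other panels.

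Chgb, the other chromogranin of the granule core, had higher signals in all knockout glands. Probe set 92841_f_at read 93585, 120199 and 98209 on Chga KO arrays 1 to 3, against 69305, 77123 and 76132 on the WT arrays. The lowest Chga KO array was above the highest WT array. The mean was 103998 ± 14220 in Chga KO and 74187 ± 4257 in WT (SD, n = 3 each), a difference of 0.48 ± 0.13 on the log2 scale (adjusted p = 0.230), short of the threshold. Its 95% interval, not adjusted for the number of probe sets, ran from 1.14-fold to 1.70-fold. The log2 change was 0.29 once the Gapdh and Actb 3′/5′ ratio entered the fit. It was 0.60 with the mean of the chromaffin markers as a covariate.

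The other Chgb probe set, 92842_r_at, was dim and was left out of the test. It read 425, 267 and 810 on the Chga KO arrays, against 495, 375 and 477 on the WT arrays, so that the groups overlapped. The suffix f marks a probe set that can also match related sequences, and r one for which some rules of probe choice were dropped. The higher Chgb signal therefore rests on 1 probe set. Outside the members, the values given below for Cpe, Scamp1, Penk and S100a1 come from probe sets with suffix f. Those for Junb come from a probe set with suffix r.

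Pcsk1n, whose proSAAS product restrains prohormone convertase 1, had the largest value among the members after Chga. It read 6777, 5984 and 6767 on the Chga KO arrays, against 5049, 2580 and 2504 on the WT arrays. The Chga KO arrays lay close together, while WT array 1 was 2.02 times WT array 3. The mean was 6509 ± 455 in Chga KO and 3378 ± 1448 in WT (SD, n = 3 each). The difference of 1.02 ± 0.26 on the log2 scale fell short of the threshold (adjusted p = 0.206), and its 95% interval ran from 1.35-fold to 3.04-fold. Without WT array 1 it was 1.35 and passed (adjusted p = 0.00929), and with the mean of the chromaffin markers as a covariate it was 0.57 (adjusted p = 0.429). With the 3′/5′ ratio as the covariate the difference was 1.10 (adjusted p = 0.969).

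Ptprn, the membrane protein IA-2 that ties granules to the cytoskeleton, differed least among the 3 genes whose groups were apart. It read 4833, 5478 and 5971 on the Chga KO arrays, against 4765, 4325 and 3394 on the WT arrays. Chga KO array 1 was only just above WT array 1. The log2 change was 0.39 ± 0.17 (adjusted p = 0.439), with an interval from 0.00 to 0.78 on the log2 scale. It was 0.17 once the 3′/5′ ratio entered the fit, and 0.34 with the chromaffin markers there instead. Its paralogue Ptprn2 was dim and not tested, with 303, 323 and 457 on the Chga KO arrays, against 413, 284 and 299 on the WT arrays, which overlapped.

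**Figure D2:**
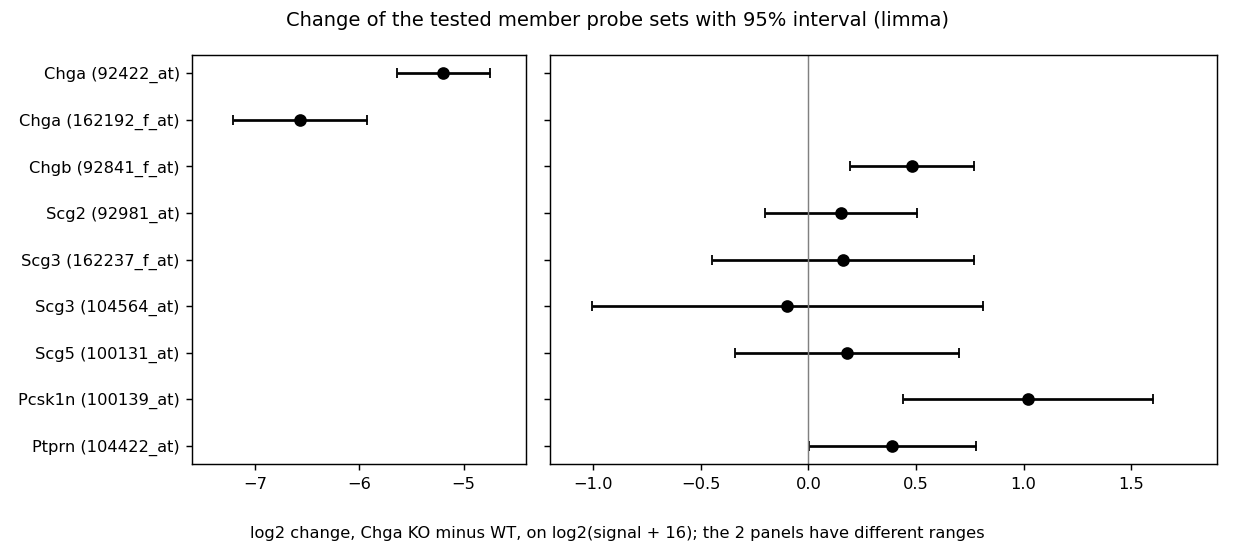
Log2 change of the 9 tested member probe sets (x axis, Chga KO minus WT on log2(signal + 16), drawn in a left and a right panel of different range), as points with the 95% interval from limma. Both Chga probe sets lay at or below -4.75 over their whole interval, the intervals of Chgb, Pcsk1n and Ptprn lay above 0, and those of Scg2, Scg3 and Scg5 included 0.

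The secretogranins showed no separation between genotypes. Scg2, the precursor of the peptide secretoneurin, read 23220, 24069 and 29152 on the Chga KO arrays, against 26755, 23108 and 19255 on the WT arrays. The groups overlapped. The log2 change was 0.15 ± 0.16 (adjusted p = 0.754), and the interval ran from 0.870-fold to 1.42-fold. The value was -0.026 once the 3′/5′ ratio entered the fit, and 0.049 with the chromaffin markers there instead.

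Scg5, which keeps prohormone convertase 2 inactive until it reaches the granule, read 2729, 2092 and 2211 on the Chga KO arrays, against 2811, 1875 and 1642 on the WT arrays. Array 1 was the highest of each genotype. The log2 change was 0.18 ± 0.23 (adjusted p = 0.803), with an interval from 0.790-fold to 1.62-fold. The value was -0.12 with the chromaffin markers in the fit, and 0.48 with the 3′/5′ ratio there instead.

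Scg3, the membrane tether of chromogranin A, was measured by probe sets that did not move together. Probe set 162237_f_at read 802, 915 and 1369 on the Chga KO arrays, against 927, 957 and 808 on the WT arrays. Probe set 104564_at read 862, 695 and 453 on the Chga KO arrays, against 1167, 495 and 577 on the WT arrays. Chga KO array 3 was thus the highest of its group on one probe set and the lowest on the other. The log2 changes were 0.16 ± 0.27 and -0.10 ± 0.40 (adjusted p = 0.856 and 0.952), and -0.27 and 0.45 once the 3′/5′ ratio entered the fit. With the chromaffin markers there instead, they were 0.17 and -0.63. Both signals were near the limit of the filter, and the intervals ran from 0.734-fold to 1.70-fold on 162237_f_at and from 0.498-fold to 1.75-fold on 104564_at.

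The wild-type arrays differed among themselves in the same genes. WT array 1 was the highest of the WT arrays on 7 of the 9 tested member probe sets, against 34.1% of all tested probe sets. The exceptions were Chgb, lowest on that array, and the brighter Scg3 probe set. WT array 1 was also the highest WT array for all 8 chromaffin markers tested, among them Th, the first enzyme of catecholamine synthesis, with 26293 there and 18716 and 21141 on WT arrays 2 and 3. The mean log2 signal of these markers was 12.90, 12.73 and 12.88 on the Chga KO arrays, against 12.84, 12.26 and 12.56 on the WT arrays. In RNA of whole glands, the number of chromaffin cells and the RNA per cell cannot be told apart. With Chga KO array 1 alone, the one with few muscle transcripts, against the 3 WT arrays, the log2 changes of Chgb, Pcsk1n and Ptprn were 0.34, 1.08 and 0.23, and none passed (adjusted p = 0.990, 0.894 and 0.996). The part of medullary content in the differences of the members was not tested beyond the covariate.

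**Figure D3:**
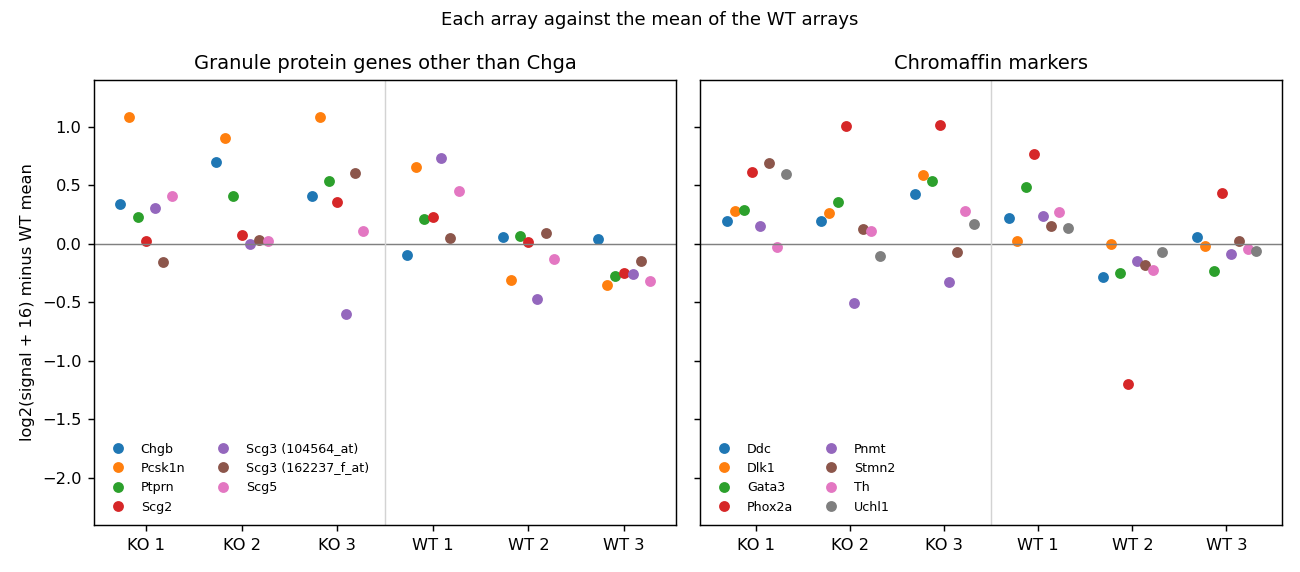
Log2(signal + 16) of each array minus the mean of the 3 WT arrays (y axis) for the 7 tested member probe sets outside Chga (left panel) and the 8 tested chromaffin markers (right panel), 1 colour per probe set, with Chga KO arrays left of WT arrays. Pcsk1n was at 1.08, 0.90 and 1.08 on the Chga KO arrays and at 0.66 on WT array 1, where all 8 markers also stood above 0.

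The enzymes that cut and finish granins and other prohormones showed no call. Of 15 genes listed, 11 were on the array and 10 were tested, and 0 passed in limma in either direction, where 0.388% of all 5663 tested genes did. 1 was higher and 1 lower at an unadjusted p under 0.05, where 5.26% of all tested genes were higher and 5.47% lower. All Chga KO arrays lay above all WT arrays for 1 gene of the list, Cpe, and below them for 2, Pcsk6 and Pam. Over all tested genes, 7.88% had all Chga KO arrays above all WT arrays and 8.41% had them all below. The list's median log2 change was -0.07, against -0.0026 over all tested genes. Cpe, the carboxypeptidase that trims basic residues from peptides and also acts in granule sorting, read 43078, 47396 and 48624 on the Chga KO arrays, against 37452, 38270 and 30727 on the WT arrays (log2 change 0.39 ± 0.13, adjusted p = 0.342). The proprotein convertase gene Pcsk6 had 806 ± 208 in Chga KO and 1211 ± 39 in WT (SD, n = 3 each, adjusted p = 0.416). Pam, the enzyme that amidates peptides, had a log2 change of -1.50 ± 0.78 (adjusted p = 0.504), with 402 on Chga KO array 1 against 4249 and 4968 on the other knockout arrays. Most of the low value rests on that 1 array, though the other Chga KO arrays also lay below the WT arrays (5792, 5789 and 5988). Pam passed with Chga KO array 1 alone (-3.81, adjusted p = 0.00131), a choice made after seeing the data, and once the 3′/5′ ratio, which also sets that array apart from the other Chga KO arrays, entered the fit (-4.64, adjusted p = 0.000374). Furin, a convertase of the trans-Golgi network, had a value of 0.13 ± 0.14.

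Genes of granule formation and docking showed no call. Of 30 listed, 17 were on the array and 14 were tested, and 0 passed in limma, where 0.388% of all tested genes did. 2 were higher and 0 lower at an unadjusted p under 0.05, against 5.26% and 5.47% of all tested genes. All Chga KO arrays lay above all WT arrays for 3 of the 14, and for 7.88% of all tested genes. The list's median was 0.11. Vamp2, the SNARE protein of the granule membrane, read 9170, 10767 and 10331 on the Chga KO arrays, against 7787, 6277 and 6403 on the WT arrays (log2 change 0.57 ± 0.14, adjusted p = 0.206). Snap25, its partner on the plasma membrane, had 1446 ± 235 in Chga KO and 868 ± 105 in WT (SD, n = 3 each, log2 change 0.72 ± 0.23, adjusted p = 0.320). The groups did not overlap for either gene, nor for the vesicle membrane protein gene Scamp1 (0.26 ± 0.13, adjusted p = 0.492), while Rab2a, a small GTPase of early secretion, had a value of -0.36 ± 0.19 (adjusted p = 0.515).

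Among the cargo that is stored with granins, 0 of 9 tested genes passed in limma, with 18 listed and 12 on the array. Of all tested genes 0.388% passed. 2 were higher and 0 lower at an unadjusted p under 0.05, against 5.26% and 5.47% of all tested genes. The groups were apart, with Chga KO higher, for 3 of the 9 and for 7.88% of all tested genes. The list's median was 0.26. Penk, the enkephalin precursor, read 8434, 12068 and 12820 on the Chga KO arrays, against 5451, 3964 and 6054 on the WT arrays. Its log2 change of 1.10 ± 0.21 missed the threshold (adjusted p = 0.0785) and passed without Chga KO array 1 (1.29, adjusted p = 0.0185). Npy (0.78 ± 0.22, adjusted p = 0.269) and Adm, which encodes the vasodilator adrenomedullin (0.60 ± 0.27, adjusted p = 0.444), also had all Chga KO arrays above all WT arrays. Ddc, which makes dopamine, had a value of 0.27 ± 0.16 with overlapping groups.

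Of the transcription factors that act on granin genes or on chromaffin identity, 3 of 11 tested genes rose and none fell, with 19 listed and 16 on the array. This compares with 0.177% of all tested genes that passed as higher. The list's median was 0.45. Junb, a partner in the AP-1 factor that binds elements akin to the CRE, rose to 22105, 18518 and 14592 on the Chga KO arrays, against 1597, 1254 and 2105 on the WT arrays (adjusted p = 0.000139). Fos, another AP-1 subunit, read 9734, 24102 and 14126 on the Chga KO arrays, against 720, 1885 and 3362 on the WT arrays (adjusted p = 0.0403). Jun, of the same list, had a value of 0.28 ± 0.32 with overlapping groups (limma adjusted p = 0.783). Egr1, a zinc finger factor induced by stimuli, rose by 1.94 ± 0.17 on the log2 scale (adjusted p = 0.000861), and lost its call with the 3′ to 5′ covariate, where Junb passed. Fos lost its call with no filter, cyclic loess scaling, no variance trend, a robust fit or the 3′ to 5′ covariate, with Chga KO array 1 alone, and without Chga KO array 2, Chga KO array 3 or WT array 2. Gata2, a factor of chromaffin development, had a value of 0.51 ± 0.14 (adjusted p = 0.245).

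**Figure D4:**
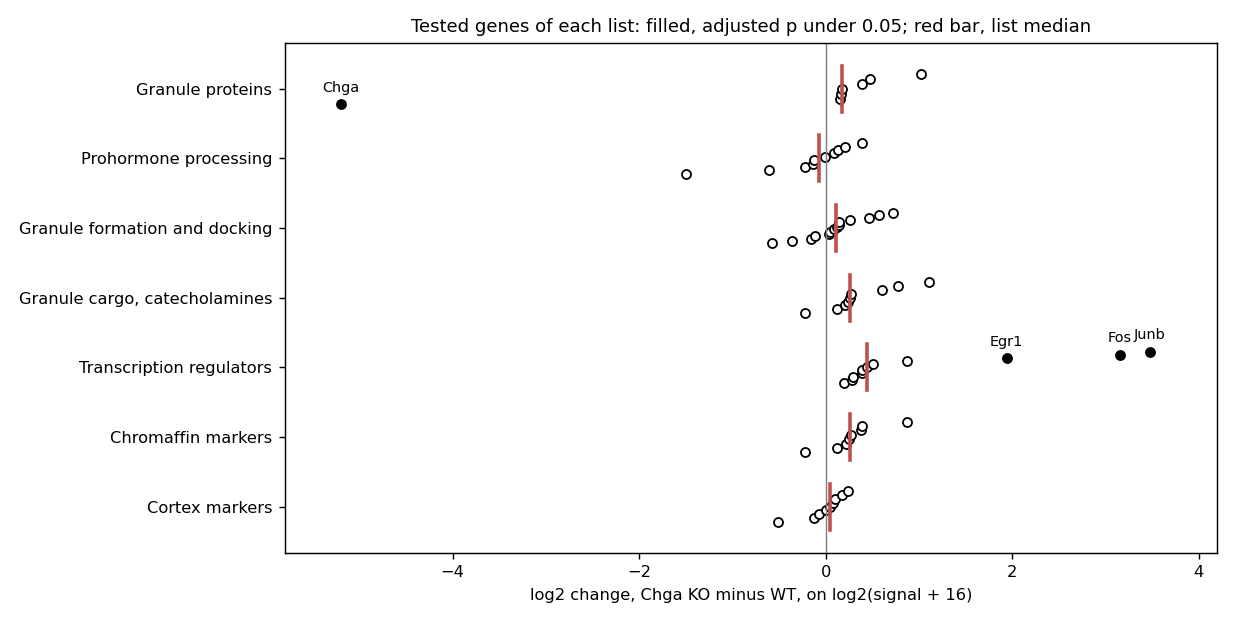
Log2 change (x axis, Chga KO minus WT on log2(signal + 16)) of the tested genes of 7 lists (y axis), 1 point per gene by its brightest tested probe set; filled points passed an adjusted p of 0.05 and the red bar is the list's median. Chga was the only filled point among the granule proteins, and Egr1, Fos and Junb were the only others.

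The genes whose signals ran most like those of Chgb over the 6 arrays were Rasd1, Septin4, Mef2a, S100a1 and Slc1a4, with Pearson r between 0.976 and 0.987. These are the highest of 5663 genes over 6 arrays that also share scaling and RNA quality, and are given as a description. After the genotype means were removed r was between 0.901 and 0.942, and each was highest on Chga KO array 2, as Chgb was. The choice of these genes from the same 6 arrays favours both traits, so neither is a further check. Rasd1, a small GTPase gene induced by glucocorticoids, read 2617, 4136 and 2439 on the Chga KO arrays, against 1309, 1436 and 1462 on the WT arrays. None of the 5 passed the test between genotypes (adjusted p between 0.117 and 0.404).

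The genes most like Chga were Rala, Gjb2, Hmgcs1, Pik3c2g and Nop10, with r between 0.975 and 0.985. Their likeness lay mainly between the genotypes: after the genotype means were removed r was between -0.62 and 0.65. Hmgcs1, at the head of cholesterol synthesis, and the kinase gene Pik3c2g passed the test, with log2 changes of -1.58 and -4.02 (adjusted p = 0.000991 and 0.00149). Both were picked by likeness to the knocked-out gene on the same arrays, so these p-values are no separate support. Pik3c2g read 682, 245 and 218 on the Chga KO arrays, against 5110, 5850 and 6099 on the WT arrays. It thus entered the test through its WT signals, and the size of its change depends on the pseudocount. The small GTPase gene Rala had the highest r and a log2 change of -0.24 (adjusted p = 0.541), with 3181, 3042 and 3069 on the Chga KO arrays, against 3654, 3603 and 3744 on the WT arrays.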

How the data were processed

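RNA of whole adrenal glands was measured on 6 single-colour arrays, 3 Chga KO and 3 WT. The deposited intensities are linear, with 1 value for each probe set. Per the submitters' processing notes the tool was MAS5, and neither its version nor its scaling target is stated there. Array medians ran from 954 to 1093, and no further normalization was applied. Genes were named from the platform annotation (10833 probe sets with 1 symbol, 396 with several, 1193 not listed) and updated through the Entrez identifier; 66 control probe sets were left out. Groups were taken from sample titles. Signals were transformed as log2(signal + 16), probe sets under the 40th percentile of mean log2 signal were dropped, and 7453 were tested with limma 3.58.1 in R 4.3.3 (lmFit, eBayes with an intensity trend; Benjamini-Hochberg over all tested probe sets; threshold 0.05; tested on simulated data). The pseudocount understates changes of dim genes. Errors are SD of signals or standard errors of log2 changes. An array has no counting depth, so the 3 arrays per group limit the precision.

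The members and lists were chosen with earlier results of these data known, so counts over them are descriptions, without a set test. Named were every member probe set, up to 4 genes of smallest p in each pathway list, marker genes spread over more than 8-fold within Chga KO, and the 5 genes most like Chga and Chgb by Pearson r. Th and Jun were added after their values were seen. P-values measure the spread between these arrays, taken as 1 mouse each. Alternatives covered pseudocount, filter, normalization, variance model, array weights, replicate block, arrays left out, and covariates for medullary content and 3′ to 5′ ratio. Chga KO array 1 alone was added after seeing the data.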

Additional observations from a re-analysis of the deposited data

How the results depend on the processing

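21 alternatives were run. The brighter Chga probe set passed in each, with log2 changes between -5.53 and -4.84. The dimmer one, low in Chga KO and tested through its WT signals, ranged from -6.82 to -5.98 and was not tested with the filter at the 60th percentile. Chgb and Ptprn kept a higher value in Chga KO and passed in none of 20 fits each. The number of probe sets past the threshold was 33, against 17 without the variance trend, 57 with the replicate block, 17 with the chromaffin marker covariate, 11 with the 3′ to 5′ covariate, 55 at a threshold of 0.10 and 13 with Chga KO array 1 alone; leaving out 1 array gave 15 to 141. Members past it numbered 1 to 2, and members other than Chga 0 to 1, when 1 array was left out, the second being Pcsk1n without WT array 1. The processing list had 1 call (Pam) with the 3′ to 5′ covariate and 1 with Chga KO array 1 alone, and 0 in the fits that left out 1 array. The cargo list had 1 call (Penk) at a threshold of 0.10, and 0 to 1 when 1 array was left out. The regulator list had 1 call instead of 3 with the 3′ to 5′ covariate.

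Values that turned direction were all of genes that did not pass. Scg5 was -0.12 with the chromaffin marker covariate and Scg2 was -0.026 with the 3′ to 5′ covariate. Scg3 104564_at was 0.45 with that covariate, 0.31 with Chga KO array 1 alone, and between -0.34 and 0.27 when 1 array was left out. Scg3 162237_f_at was -0.27 with that covariate, -0.15 with Chga KO array 1 alone, and between -0.061 and 0.32 when 1 array was left out. In fits with 1 Chga KO array, that array is assumed to vary like the others. Same-numbered arrays had r = 0.26 for number 1 and -0.04 for numbers 2 and 3. Of the 6 arrays, 2 correlated best with their own number, and both were number 1. The labels give only a number, and whether the number 1 arrays shared any handling was not tested. The replicate block changed no member's call, with Pcsk1n at an adjusted p of 0.0979 in limma. Array-to-array spread and dim signals limit what can be seen for Scg3 and Ptprn2.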
